A study of Mus musculus with 20 samples.

Results

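The Trim5 cluster is a stretch of mouse chromosome 7 from which 8 Trim genes are described here (Trim6, Trim34a, Trim5, Trim12a, Trim12c, Trim30b, Trim30a and Trim30d), and Gvin1 is a large GTPase gene a short way further along the same chromosome. These 9 genes, of 47729 in the deposited table, were taken by name. They were chosen by their normalised read counts, which in earlier results of these data switched between high and near absent from one library to the next, and by lying on the chromosome that also carries Arntl, the gene of BMAL1. All 9 names were present, and all 9 passed the filter on low values (4 or more libraries at 1 or above) along with 26612 genes in all. Their levels and genotype differences are therefore given below as description, without tests.

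Whole adrenal glands of mice were the source of the RNA. Both genotypes carried the Cre driver SCC::Cre, where SCC is the side-chain cleavage enzyme made by steroid-producing cells of the adrenal cortex, and one of them was also labelled as a Bmal1 KO. The 20 libraries were 5 control females of 1.5 to 3.4 months, 5 Bmal1 KO females of 2.4 to 3.4 months, 6 control males of 2.9 to 4.7 months and 4 Bmal1 KO males of 2.9 to 3.7 months. The sources used here do not give the strain, the breeding, the litter, the time of day or the exons of Bmal1 that were removed, and the origin of the chromosome 7 stretch carried by each animal was not tested. Nothing in the labels says that libraries of equal age came from separate animals, so p-values measure only how far these samples spread, part of which may be technical. Since whole glands were sequenced, fewer cells of a type and less RNA per cell cannot be told apart.

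Each library held between 13421985 and 26742820 recovered reads, and a floor of 3 reads was worth 2.39 to 4.62 normalised reads, which covers counting error only. Cry1, a repressor of the circadian clock, separated the genotype labels in all 20 libraries: it was at 207 to 237 normalised reads in control females and 1597 to 2137 in Bmal1 KO females, and at 122 to 213 in control males and 1140 to 1423 in Bmal1 KO males. Xist and the Y-linked gene Ddx3y followed the sex labels throughout. Arntl itself was at 494 to 860 normalised reads in control females and 833 to 1010 in Bmal1 KO females, and at 365 to 1092 in control males and 841 to 995 in Bmal1 KO males. A sum over the whole gene includes exons outside any deleted part and so checks nothing about the deletion.

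TRIM proteins carry a RING domain that attaches ubiquitin, and many of them act in defence against viruses. The primate TRIM5alpha protein binds the capsids of incoming retroviruses, and rodents carry a family of expanded, variable copies of its gene in place of a single one. Trim5, Trim12a and Trim12c belong to that family, Trim30a and its relatives Trim30b and Trim30d form another, and Trim30a restrains Toll-like receptor signalling by removing the TAB2 and TAB3 adaptors. Trim6 makes free ubiquitin chains used in type I interferon signalling, Trim34a is an interferon-inducible relative of Trim5, and Gvin1 encodes a very large GTPase that interferons induce.

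On GRCm38 the 8 Trim genes ran from Trim6 (chr7:104218793-104235152, plus strand) to Trim30d (chr7:104470014-104507849, minus strand), and all are protein-coding. Between them stood Trim34a (chr7:104244457-104262234, plus strand), Trim5 (chr7:104263386-104288094, minus strand), Trim12a (chr7:104299894-104315466, minus strand), Trim12c (chr7:104338754-104353362, minus strand), Trim30b (chr7:104355382-104369884, minus strand) and Trim30a (chr7:104409025-104465193, minus strand). Trim34b (chr7:104329471-104336909, plus strand), which is no member, lay between Trim12a and Trim12c, and Trim30c, also no member, lay between Trim30b and Trim30a. The members' starts lay 8.74 to 8.99 megabases before that of Arntl (chr7:113207465-113314126, plus strand). Gvin1 (chr7:106156556-106215326, minus strand) lay 7.05 megabases before it.

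The promoters are shown because genes of this cluster with near-identical promoter letters had different levels across the libraries. The 100 bases before the RefSeq gene start (GRCm38.p6) are printed in the direction of the gene. Capitals mark the core of the interferon-stimulated response element, searched on both strands as GAAA, any 2 letters and GAAA, which reads as its reverse complement here.
Trim5 (chr7:104288107-104288206, minus strand): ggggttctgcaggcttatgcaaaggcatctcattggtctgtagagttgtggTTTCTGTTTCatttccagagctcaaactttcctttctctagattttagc
Trim12c (chr7:104353350-104353449, minus strand): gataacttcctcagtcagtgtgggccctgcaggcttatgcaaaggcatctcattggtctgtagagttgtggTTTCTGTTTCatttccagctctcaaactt
Trim12a (chr7:104315496-104315595, minus strand): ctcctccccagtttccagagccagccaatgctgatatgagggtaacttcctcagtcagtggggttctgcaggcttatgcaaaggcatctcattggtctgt
Trim30a (chr7:104465194-104465293, minus strand): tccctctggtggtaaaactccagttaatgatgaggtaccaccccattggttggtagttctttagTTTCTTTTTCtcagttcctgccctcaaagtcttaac
Trim30d (chr7:104507850-104507949, minus strand): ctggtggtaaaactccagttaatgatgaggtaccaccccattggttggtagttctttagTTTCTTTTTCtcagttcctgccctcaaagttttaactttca
The core began at position -49 in Trim5, -29 in Trim12c, -36 in Trim30a and -41 in Trim30d, counted from the gene start. In Trim12a and in Trim34a it began 11 bases after the RefSeq start, outside the window printed. The GENCODE start of Trim12a, at 104315466, lies further into the gene, so by that annotation the core stands before the start. Trim5 and Trim12c shared an unbroken run of 63 of the 100 bases, Trim5 and Trim12a one of 41, and Trim30a and Trim30d one of 89, so these promoters are not independent of each other. Over the 250 bases before each start, 978 of 32851 RefSeq promoters (2.977%) held the core. Trim6 and Trim30b held none in that window, and none of the 8 Trim members held the interferon-gamma motif TTCNNNGAA (7.02% of all promoters) or the E-box CACGTG (6.021%). For Trim30b the window searched (chr7:104358647-104358896) follows a RefSeq start inside the gene as mapped above. It does not reach the GENCODE start at 104369884, where the motifs were not searched. A match is a description of these letters and not a measured binding site.

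Trim12a, Trim30d, Trim5 and Gvin1 were high in control females 1 to 4 and in Bmal1 KO male 2, and low in each of the other 15 libraries. Control female 5 was low for all of them. The split followed neither genotype nor sex. It set control female 5 apart from the other control females and Bmal1 KO male 2 apart from the other Bmal1 KO males.

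**Figure D1:**
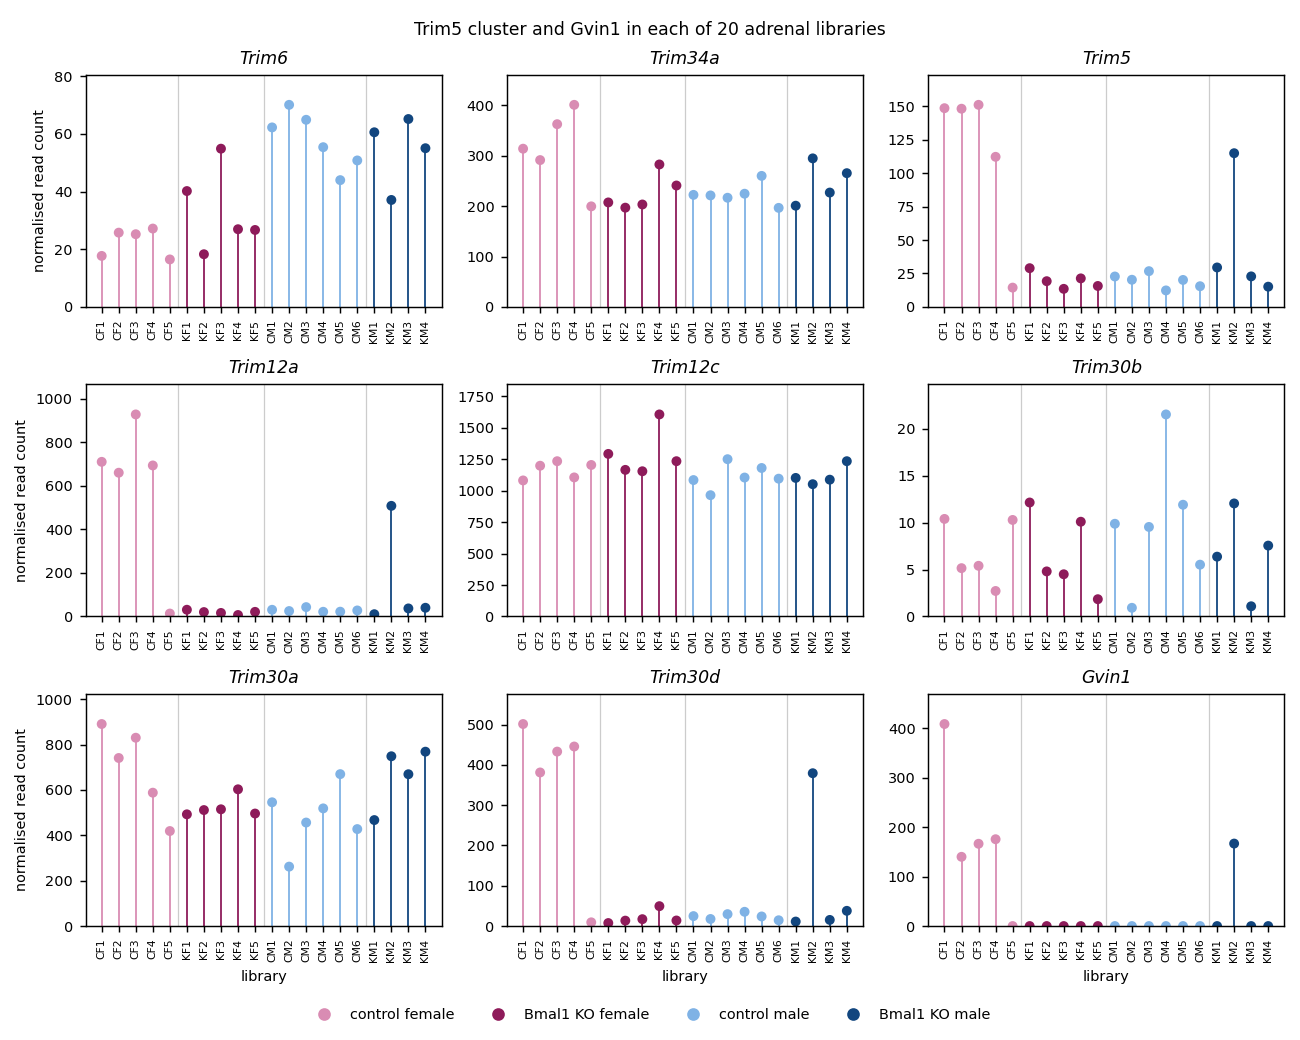
Normalised read count (y axis, starting at 0, a scale of its own in each panel) of each member in each of the 20 libraries (x axis; CF control female, KF Bmal1 KO female, CM control male, KM Bmal1 KO male, with the replicate number). Points in the Trim5, Trim12a, Trim30d and Gvin1 panels stand high in CF1 to CF4 and KM2, while those of Trim12c stay between 965 and 1607 throughout.

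Trim12a, a relative of Trim5, read 710.4, 660.4, 928, 694 and 13.4 normalised reads in control females 1 to 5, and 30.8, 20.2, 16.2, 6.73 and 21.2 in Bmal1 KO females 1 to 5. In control males 1 to 6 it read 30.6, 24.9, 43.0, 21.5, 22.0 and 27.6, and in Bmal1 KO males 1 to 4 it read 10.4, 508, 36.9 and 39.9. The 5 high libraries began at 508 and the highest of the other 15 was 43.0, and within each sex the genotype groups overlapped, through control female 5 in one and through Bmal1 KO male 2 in the other.

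Trim5, the mouse counterpart of the capsid-binding factor, read 149, 148, 151, 112 and 14.4 in control females and 29.0, 19.2, 13.5, 21.3 and 15.6 in Bmal1 KO females, in the order of replicate number. In control males it read 22.7, 20.3, 26.7, 12.3, 20.2 and 15.5, and in Bmal1 KO males 29.5, 115, 22.8 and 15.1. The same 5 libraries were high, here at 112 to 151, and none of the other 15 was above 29.5. Unlike Gvin1, Trim5 stayed above the floor everywhere, with 8 or more recovered reads in each library.

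Trim30d, a relative of the signalling inhibitor Trim30a, read 501, 381, 433, 446 and 9.26 in control females and 7.47, 13.5, 17.1, 49.4 and 13.8 in Bmal1 KO females. Control males read 24.7, 17.5, 29.6, 35.4, 23.8 and 14.4, and Bmal1 KO males 11.2, 379, 15.2 and 37.8. Bmal1 KO male 2, at 379, stood just under the lowest of control females 1 to 4, at 381. Bmal1 KO female 4 was the highest of the low libraries, at 49.4.

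Gvin1 was the only member listed at 0, with 0 recovered reads in 15 of the 20 libraries. It read 409, 140.1, 167, 176 and 0 in control females and 0 in all 5 Bmal1 KO females, and 0 in all 6 control males against 0, 167, 0 and 0 in Bmal1 KO males. The libraries with Gvin1 reads were the same 5 in which Trim12a, Trim5 and Trim30d were high. Against the mean floor of 2.90 in Bmal1 KO females, taken per library, the control female mean of 178 ± 147 (SD, n = 5, control female 5 at 0 included) was 61.4-fold higher. The Bmal1 KO male mean of 41.7 ± 83.5 (SD, n = 4), which rests on 1 library, was 13.0-fold higher than the control male floor. Neither fold is a lower bound, since the floor covers counting error only. Of Gvin1's 50-base stretches 98.3% also occur in Gm4070, and how such reads were counted is not stated.

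Trim34a showed the same libraries at the top of a much narrower range. It read 314, 292, 363, 401 and 199.6 in control females, 207, 197, 203, 283 and 241 in Bmal1 KO females, 222, 221, 217, 225, 260.1 and 197 in control males, and 201, 295, 227 and 266 in Bmal1 KO males. The lowest of control females 1 to 4, at 292, stood close to Bmal1 KO female 4, at 283, so there was no gap like that of Trim12a.

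Trim30a, the inhibitor of Toll-like receptor signalling, was graded rather than split. Control females read 890.4, 741, 830.0, 588 and 419, Bmal1 KO females 492, 511, 515, 603 and 496, control males 546, 262, 456, 519, 669.6 and 427, and Bmal1 KO males 467, 748, 669 and 768.5. Bmal1 KO males 3 and 4, which were low for Trim12a, Trim5 and Trim30d, were among the higher libraries for Trim30a, and all 4 groups overlapped.

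Trim12c, the nearest copy of Trim5 in promoter and transcript, was high in all 20 libraries. It ran from 1082 to 1235 in control females, 1155 to 1607 in Bmal1 KO females, 964.7 to 1251 in control males and 1052 to 1235 in Bmal1 KO males. Bmal1 KO female 4 was the highest library and control male 2 the lowest.

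Trim30b was near the floor, with 1 to 14 recovered reads per library and at or under 3 reads in 4 of the 20 libraries. Its level was not measurable well enough at this depth to compare libraries.

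Trim6, the maker of free ubiquitin chains, differed by sex label and not along the split of the other genes. Control females averaged 22.5 ± 4.98 normalised reads (SD, n = 5) and Bmal1 KO females 33.4 ± 14.4 (n = 5), against 57.9 ± 9.67 (n = 6) and 54.5 ± 12.3 (n = 4) in the control and Bmal1 KO males. Control females, at 16.5 to 27.2, and control males, at 44.0 to 70.1, did not overlap, with a log2 difference of -1.34 ± 0.25 (SE) for female minus male. Bmal1 KO females, at 18.3 to 54.9, and Bmal1 KO males, at 37.1 to 65.2, did overlap.

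Per kilobase of exon, Trim12c was the most abundant member in control females at 312 ± 18.0 normalised reads per kilobase (SD, n = 5), followed by Trim30a at 169 ± 46.5, Trim34a at 121 ± 29.6, Trim12a at 104 ± 59.7 and Trim30d at 94.2 ± 52.5. Trim30a and Trim34a differed by slightly more than the larger of their SDs, and Trim34a, Trim12a and Trim30d differed from their neighbours in this order by less than it. Trim5 at 31.2 ± 15.8, Gvin1 at 19.8 ± 16.3, Trim6 at 4.59 ± 1.02 and Trim30b at 0.902 ± 0.453 followed, and here Gvin1 differed from Trim5 and from Trim6 by less than the larger SD. In Bmal1 KO females Trim12c, Trim30a and Trim34a kept the first 3 places at 345 ± 49.5, 127 ± 11.0 and 87.3 ± 13.8. Next came Trim6 at 6.82 ± 2.93, Trim30d at 5.39 ± 4.43 and Trim5 at 5.35 ± 1.62, where neighbours differed by less than the larger SD, and then Trim12a at 3.29 ± 1.51, which stood below Trim5 by more than either SD.

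The genotype differences of the members followed this split. They are differences of log2(value + 1), Bmal1 KO minus control, from a limma fit over all genes. In females they were -4.21 ± 0.94 (SE) for Trim12a, -3.56 ± 0.93 for Trim30d, -2.17 ± 0.54 for Trim5 and -6.13 ± 1.34 for Gvin1, a value that depends on the added 1. In males the same genes stood at 0.94 ± 0.96, 0.77 ± 0.95, 0.77 ± 0.56 and 1.85 ± 1.36. The signs were opposite in the sexes, and the male values came from Bmal1 KO male 2.

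Without Bmal1 KO male 2 the male differences were -0.13 for Trim12a, -0.30 for Trim30d, 0.18 for Trim5 and 0 for Gvin1. Without control female 5 the female differences grew to -5.35 for Trim12a, -4.65 for Trim30d, -2.80 for Trim5 and -7.67 for Gvin1. Leaving out any other female library kept Trim12a between -4.42 and -3.85 in females.

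**Figure D2:**
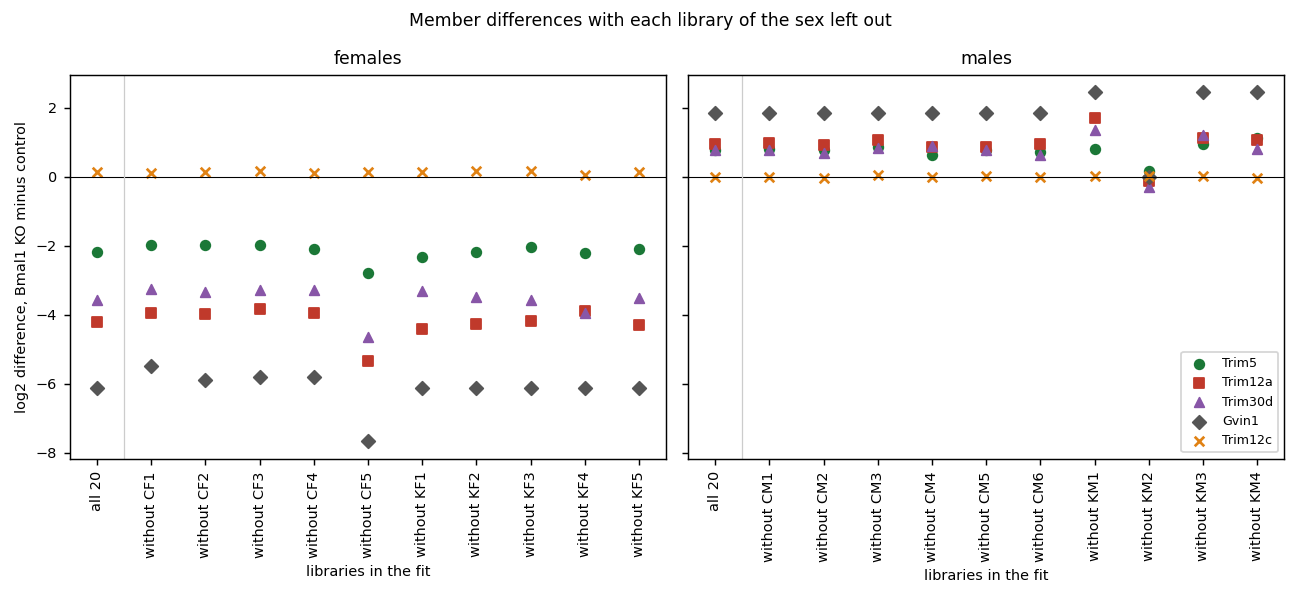
Log2 difference of Bmal1 KO minus control (y axis) for 5 members in females (left) and males (right), with all 20 libraries and with each library of that sex left out (x axis; CF, KF, CM and KM as control and KO females and males). The male differences of Trim12a, Trim30d, Trim5 and Gvin1 fall to between -0.30 and 0.18 without KM2, and the female ones are furthest from 0 without CF5.

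The remaining members had smaller differences. Trim34a stood at -0.45 ± 0.16 in females and 0.13 ± 0.16 in males, and Trim30a at -0.36 ± 0.21 and 0.50 ± 0.22. Trim12c stood at 0.14 ± 0.09 and 0.01 ± 0.09, Trim6 at 0.48 ± 0.26 and -0.10 ± 0.26, and Trim30b at -0.10 ± 0.60 and -0.43 ± 0.61. At an adjusted p under 0.05, 3 of the 9 members (Trim5, Trim12a and Gvin1, all lower in Bmal1 KO) were called in females, where 1.75% of all tested genes were called and 0.635% were called lower. In males 0 of 9 were called against 1.33% of all genes, and for the difference between the sexes 0 of 9 against 0.0301%. Nothing is read from these counts, since the same values chose the members, and in every member the genotype groups overlapped in both sexes.

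Age did not separate the libraries the same way. Control females 4 and 5 were both 1.5 months old, and Trim12a was 694 in one and 13.4 in the other. Cry1 also did not. It was 1423 in Bmal1 KO male 2, the highest of the Bmal1 KO males, and 216 in control female 5, among the other control females. Arntl was highest among the control females in control female 5, at 860, inside the Bmal1 KO female range of 833 to 1010. The relation of Arntl to the split was not tested.

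Summed macrophage and lymphocyte markers were highest of all libraries in control female 5. Its summed level of 12 macrophage markers was 34890 normalised reads against 9296 to 14590 in control females 1 to 4, and its 11 lymphocyte markers summed to 547 against 187 to 268. In Bmal1 KO male 2 these sums were 11270 and 122, against 6738 to 12580 and 149 to 313 in the other Bmal1 KO males. The 7 adrenal cortex markers summed to 1373000 in control female 5, inside the control female range of 1152000 to 1510000, and to 718900 in Bmal1 KO male 2, the lowest of the Bmal1 KO males, whose highest was 1033000. The 5 chromaffin markers of the medulla were present in all libraries, from 86570 to 203700. Each sum is weighted to its most abundant genes, which were Cd4 and Ms4a1 for the lymphocyte markers. In females Cd4 differed between genotypes by -1.29 ± 0.90 (limma adjusted p = 0.65), against a median of 0.52 for the lymphocyte list. A sum therefore need not describe most of its markers, and single markers are not given by library. The part of these differences in the low and high member levels was not tested.

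Copies of these genes limit what a read count can assign to each. Of the 50-base stretches of Gvin1's transcripts, 99.2% also occur in another gene, and 98.3% occur in Gm4070 (chr7:105895139-105953967, minus strand), a second GTPase gene of the same kind. For Trim34a the share was 59.7%, with 39.8% in Trim34b, for Trim5 36.6%, for Trim12c 33.7%, for Trim12a 10.5%, for Trim30d 7.49% and for Trim30a 5.98%. Trim6 and Trim30b shared 1.51% and 1.48%. The sources used here do not say how reads that match several genes were counted, so the levels of Gvin1, Trim34a, Trim5 and Trim12c in particular are uncertain.

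Gm4070 was read in all 20 libraries. It was at 695, 381, 346, 414 and 645 in control females, 1230, 630.3, 598, 1033 and 623 in Bmal1 KO females, 401, 329, 497, 460.1, 1194 and 478 in control males, and 465, 549.9, 892 and 1064 in Bmal1 KO males. Its genotype differences were 0.72 ± 0.31 in females (limma adjusted p = 0.344) and 0.46 ± 0.32 in males (adjusted p = 0.657). Gvin1 and Gm4070 together came to 675 ± 246 (SD, n = 5) among control females and 823 ± 290 (n = 5) among Bmal1 KO females. Among males the sums were 560.0 ± 317 (n = 6) for controls and 784 ± 256 (n = 4) for Bmal1 KO. These sums overlapped between all groups.

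Trim34b, the near copy of Trim34a, ran the other way. It was at 69.7, 95.8, 88.2, 86.0 and 145 in control females and 118, 129, 147, 237 and 183 in Bmal1 KO females, and at 153, 117, 182, 155, 145 and 130.3 in control males and 120.4, 74.2, 135 and 195 in Bmal1 KO males. The 5 libraries with Gvin1 reads were its 5 lowest. Trim34a and Trim34b together came to 411 ± 57.3 (SD, n = 5) for control females and 389 ± 83.5 (n = 5) for Bmal1 KO females. For males the sums were 371 ± 31.7 (n = 6, controls) and 378 ± 59.0 (n = 4, Bmal1 KO), and all groups overlapped.

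**Figure D3:**
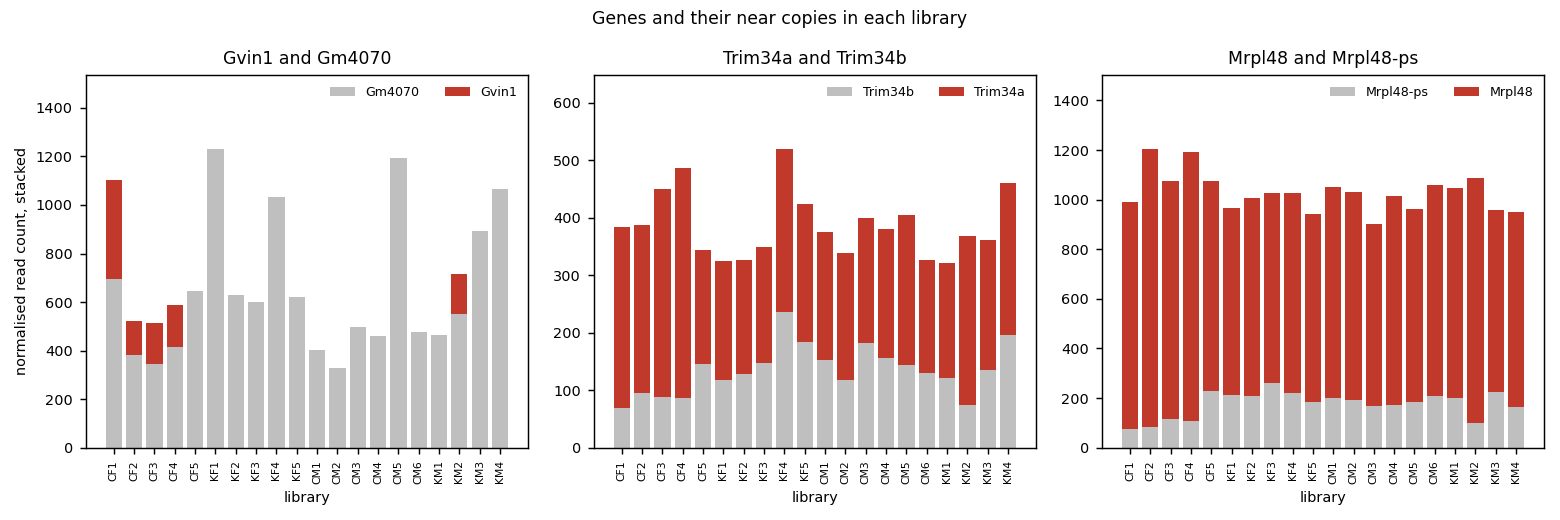
Normalised read counts stacked for 3 pairs of a gene (red) and its near copy (grey) in each of the 20 libraries (x axis; y axis from 0, a scale of its own in each panel). Gvin1 adds to Gm4070 in CF1 to CF4 and KM2 only, and the sums of Trim34a with Trim34b and of Mrpl48 with Mrpl48-ps vary less between libraries than the shares of the near copies do.

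Several annotated genes lie inside members or overlap them. These are the small RNA Gm24846 inside Trim5, the antisense gene Gm15133 across the start of Trim12a, the pseudogene Gm16464 inside Trim30d and the pseudogene Gm18853 inside Gvin1. Without a stated strand setting, reads from Gm15133 and Trim12a cannot be told apart.

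Across the 20 libraries, Trim12a, Trim30d, Trim5 and Gvin1 followed one another closely. As Pearson's r of log2(value + 1), Gvin1 stood at 0.96 with Trim12a, 0.961 with Trim5 and 0.95 with Trim30d, and at 0.825 with Trim34a and 0.619 with Trim30a. With Trim12c it was -0.175, with Trim30b 0.024 and with Trim6 -0.491. These values describe 20 libraries that fall into separate high and low sets, are set by that split, and share the copies named above.

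The tested genes most like Gvin1 were Gm15133 (r = 0.979), Gm24846 (0.975), Gm1966 (0.878), Gm15135 (0.873) and Gm16464 (0.849). Gm15133, Gm24846 and Gm16464 overlap members, Gm1966 (chr7:106596743-106604035, minus strand) is a pseudogene near Gvin1, and Gm15135 has no coordinates in the annotation used. Gm15133, Gm24846 and Gm16464 had at most 11, 5 and 10 recovered reads in any library. They passed the filter on low values only through libraries with Gvin1 reads, so their r was largely set by that filter. Gm1966 read 54.1, 36.1, 28.8, 23.5 and 4.12 in control females and 40.8 in Bmal1 KO male 2, and at most 7.64 in the other libraries. The strongest opposite value belonged to Mrpl48-ps (r = -0.934) and the next to Trim34b (-0.829).

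The genes like Gvin1 were counted by place. At r of 0.7 or more in either direction, a limit chosen after the values were seen, there were 7 of 188 tested non-member genes within 5 megabases of the members (3.72%), 3 of 1973 elsewhere on chromosome 7 (0.152%) and 23 of 24285 on other chromosomes (0.0947%). The near count includes Gm15133, Gm24846 and Gm16464, which passed the filter only through libraries with Gvin1 reads, so the shares are a description. Apart from the overlapping genes, Gm1966 and Trim34b, the near ones were Mrpl48 and Ucp2, on the far side of the cluster from Arntl.

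**Figure D4:**
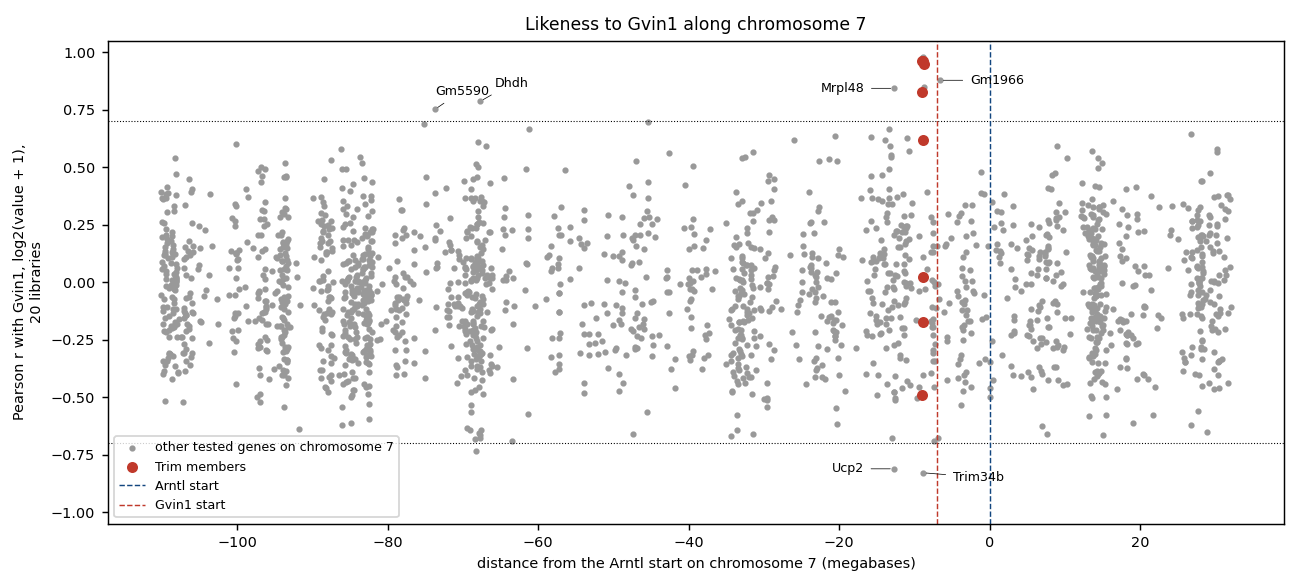
Pearson's r with Gvin1 over 20 libraries (y axis) for each tested gene of chromosome 7 against distance from the Arntl start in megabases (x axis); red points are the Trim members, dashed lines mark the Arntl and Gvin1 starts and dotted lines r of 0.7 in either direction. Trim5, Trim12a and Trim30d stand between 0.95 and 0.961, and Ucp2 and Trim34b stand below -0.8.

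Mrpl48 (chr7:100545751-100608301, minus strand), a protein of the mitochondrial ribosome, read 915, 1119, 961.5, 1084 and 849 in control females and 756, 800.4, 764, 807 and 759.9 in Bmal1 KO females. In control males it ran from 733 to 851, and Bmal1 KO males read 843, 988.5, 735 and 789. Control females 1 to 4 and Bmal1 KO male 2 were its 5 highest libraries. The female groups did not overlap, and the difference of -0.34 ± 0.08 passed the test (limma adjusted p = 0.0418), a call that was lost in 11 of the fits with 1 library left out (0.0511 to 0.121). In males it was 0.03 ± 0.09 (adjusted p = 0.942).

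Its processed copy on chromosome 4, Mrpl48-ps (chr4:88599175-88599810, minus strand), named after its values were seen, was at 75.9 to 114 in control females 1 to 4, 100.1 in Bmal1 KO male 2 and 162 to 261 in the other libraries. Its female difference of 0.93 ± 0.23 passed the test (limma adjusted p = 0.0418) but not in 15 of the fits with 1 library left out (0.05 to 0.117). Ucp2 (chr7:100493337-100502020, plus strand), an uncoupling protein of the inner mitochondrial membrane, read 3051, 2991, 2983, 3471 and 4809 in control females and 3516, 2435, 4304 and 3943 in Bmal1 KO males. Control female 5 was its highest library of all 20 and Bmal1 KO male 2 its lowest. Neither genotype difference of Ucp2 passed the test, at 0.18 ± 0.13 in females (limma adjusted p = 0.66) and -0.36 ± 0.13 in males (0.264).

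Of the 240 tested non-member neighbours in chr7:99218793-118314126, which covers 5 megabases on either side of the members and Arntl, 8 passed the test in females (3.33%, 4 higher and 4 lower, against 1.75% of all genes) and 4 in males (1.67% against 1.33%). The 8 in females include Gm15133, which overlaps Trim12a and passed the filter only through libraries with Gvin1 reads. Its call repeats the split that chose the members, so the female share is a description. The median difference of the neighbours was 0.03 in females and 0.02 in males, against 0 for all genes in both. For the difference between the sexes 0 of 240 passed. The count in females fell to 3 without control female 3 or control female 4 and rose to 14 with DESeq2.

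Insc, a gene of spindle orientation in dividing cells, was the neighbour called in both sexes and lay beyond Arntl (chr7:114743694-114850383, plus strand). It read 124, 60.8, 83.7, 112 and 77.2 in control females and 266, 195, 188, 309.8 and 178 in Bmal1 KO females, which did not overlap. Control males ran from 18.8 to 43.0 and Bmal1 KO males from 46.7 to 94.8, again without overlap. The differences were 1.31 ± 0.24 in females (limma adjusted p = 0.00447) and 1.26 ± 0.25 in males (0.00942). The male call was lost in a fit of the male libraries alone (0.0631) and in one that left out Bmal1 KO male 1 (0.05). Control female 5 and Bmal1 KO male 2 stood with their labels here, unlike for Trim12a.

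In females, Nlrp10, a relative of inflammasome sensors, rose by 1.18 ± 0.30 (limma adjusted p = 0.0449) and Olfr613, an olfactory receptor gene, by 0.42 ± 0.09 (0.0158). Clpb, a mitochondrial chaperone, changed by -0.45 ± 0.11 (0.0436), and Gm15133, which overlaps Trim12a, by -2.64 ± 0.58 (0.0185). Gm15133 had at most 11 recovered reads and passed the filter only through libraries with Gvin1 reads. The unnamed genes ENSMUSG00000106468, a miRNA gene inside Ampd3 with at most 5.61 normalised reads, and ENSMUSG00000108985 changed by 1.91 ± 0.39 (0.0109) and -1.65 ± 0.41 (0.0383). Olfr613 lost its call without Bmal1 KO female 3 (0.0543) and Gm15133 without control female 2, 3 or 4 (0.0559 to 0.0567). Nlrp10, Clpb and ENSMUSG00000108985 lost theirs in 14, 15 and 7 of the fits with 1 library left out (0.0505 to 0.119).

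In males, Ampd3, an AMP deaminase, rose by 0.72 ± 0.16 (limma adjusted p = 0.0216), Rnf121, a ubiquitin ligase of the secretory pathway, changed by -0.41 ± 0.10 (0.0374) and the pseudogene ENSMUSG00000107383 by -1.09 ± 0.19 (0.00338). Ampd3 lost its call without Bmal1 KO male 2 (0.0831), male 3 (0.0523) or male 4 (0.0503), and Rnf121 without any of control males 1 to 5 or Bmal1 KO males 2 to 4 (0.0569 to 0.139).

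Interferon response genes as a group were not set apart in the libraries that had Gvin1 reads. Of 28 interferon response genes, 1 passed the test in females, Rsad2, the antiviral enzyme viperin, which rose by 0.48 ± 0.12 (limma adjusted p = 0.0425), and 0 in males. Rsad2 lost its call in 12 of the fits with 1 library left out (0.0508 to 0.125). The median difference was -0.04 in females and 0.06 in males, against 0 for all genes. At an unadjusted limma p under 0.05 there were 2 in females and 3 in males. Of all 26612 tested genes, 3110 in females and 2899 in males were under that limit. The summed level of these 28 genes was 27720 to 35550 normalised reads in control females and 28030 in Bmal1 KO male 2, and the highest sums were those of Bmal1 KO female 4 (43830) and Bmal1 KO male 4 (42340), both low for Trim12a and Gvin1.

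Of 16 interferon-inducible GTPases, relatives of Gvin1 in function, 0 passed the limma test in either sex, with 3 in females and 1 in males at an unadjusted p under 0.05. Of all genes, 1.75% passed in females and 1.33% in males. At an unadjusted limma p under 0.05 it was 3110 and 2899 of 26612. The median difference of these GTPases was 0.35 in females and 0.33 in males, against 0 for all genes. Their summed level averaged 11040 ± 2992 (SD, n = 5) in Bmal1 KO females and 8815 ± 542 (n = 5) in control females. In males it averaged 10280 ± 4006 (n = 4) in Bmal1 KO and 8263 ± 2658 (n = 6) in controls. The most abundant were Gbp7, at 0.04 ± 0.13 in females and 0.09 ± 0.14 in males, and Irgm1, at 0.19 ± 0.17 and 0.19 ± 0.17. Their summed level was 9416 in control female 5, the highest control female, and 8076 in Bmal1 KO male 2, within the Bmal1 KO male range of 6823 to 15880.

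Trim12c was most like genes of this programme. The leading ones over the 20 libraries were Irgm1 (r = 0.829), Gbp7 (0.795), Psmb10, a subunit of the immunoproteasome (0.763), and Zbp1, a sensor of viral nucleic acid (0.753). For Trim12a the r with Irgm1 was -0.117, for Trim5 -0.072, for Trim30d 0.001, for Gvin1 -0.094 and for Trim30a 0.314. Bmal1 KO female 4 was highest of all libraries in Trim12c (1607) and in Irgm1 (2309). These are descriptions of 20 libraries of 4 groups, with no test.

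**Figure D5:**
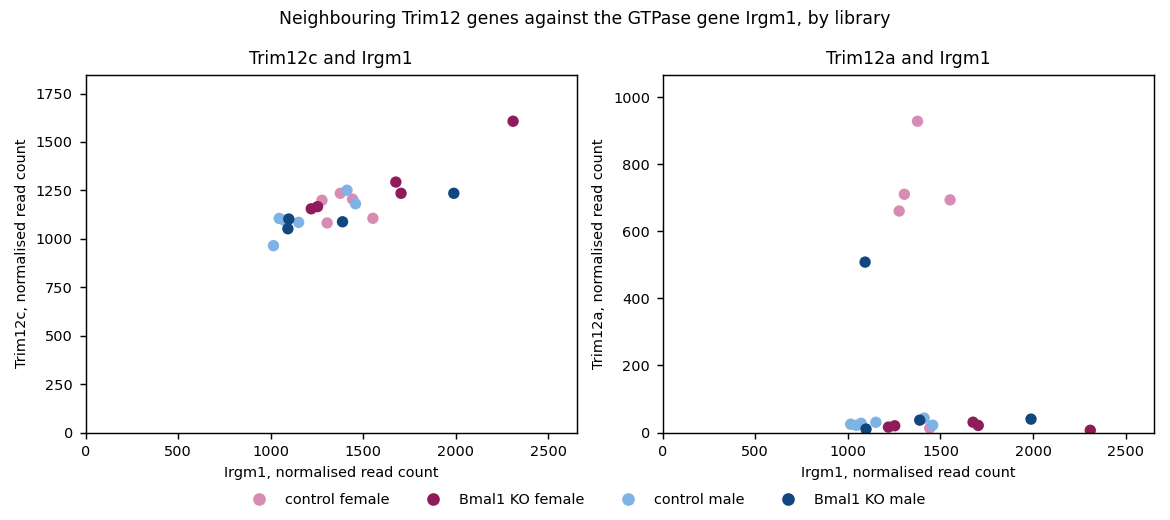
Trim12c (left) and Trim12a (right), in normalised reads (y axes from 0), against Irgm1 (x axis, normalised reads) in the 20 libraries, coloured by group. Trim12c climbs with Irgm1 to 1607 in a Bmal1 KO female, while Trim12a stands at 508 to 928 in 5 libraries and at 43.0 or less in the others at any Irgm1 level.

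The genes most like Trim6 were Osgin1 (r = 0.897), Faah (0.884), Dusp14 (0.879), Ttc39aos1 (0.873) and 4833422C13Rik (0.872), all on other chromosomes. Those most like Trim30a were Pcm1 (0.82), Ice2 (0.807), 1700003M02Rik (0.759), Tjp1 (0.74) and Adamts9 (0.724). Trim34a was most like Gm24846 (0.838) and Gm15133 (0.813), which also led the lists of Trim5, Trim12a, Trim30d and Gvin1, then Gm11285, Gm21973 and Gm16464 (0.771 to 0.787). The fifth of Trim12a was Gm6079 (0.817), on chromosome X. The fifth of Trim12c was ENSMUSG00000106361 (0.747).

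Of 14 antiviral restriction factors, 0 passed in females (4 at an unadjusted limma p under 0.05) and 1 in males, Serinc5, a membrane protein that lowers retroviral infectivity, which rose by 0.73 ± 0.10 (limma adjusted p = 0.000209). Of 11 genes of NF-kB and innate signalling, which includes the Trim30a target Tab2, 0 passed in females and 0 in males, with 2 and 1 at an unadjusted p under 0.05. Among all 26612 tested genes, 3110 in females and 2899 in males had an unadjusted limma p under 0.05. Tab2 stood at 0.00 ± 0.06 in females and 0.04 ± 0.06 in males, and Map3k7, the kinase it recruits, at -0.07 ± 0.10 and -0.16 ± 0.10.

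Of 54 tested Trim genes other than the members, 2 passed in females and 1 in males, against 1.75% and 1.33% of all genes. At an unadjusted limma p under 0.05 there were 10 and 5, against 3110 and 2899 of all 26612 tested genes. Trim40, an inhibitor of NF-kB signalling, changed by -2.59 ± 0.52 in females (limma adjusted p = 0.00877) and -3.83 ± 0.53 in males (0.000307), and Trim24, a nuclear co-regulator, rose by 0.31 ± 0.07 in females (0.0269). Trim24 lost its call in 7 of the fits with 1 library left out (0.0526 to 0.0774), and the female Trim40 call was lost with a pseudocount of 10, where its difference was -1.25 (0.105). The nearest Trim genes on chromosome 7 outside the cluster, Trim21, Trim68 and Trim3, lie 10.65, 10.53 and 7.6 megabases before Arntl. In control females 1 to 5 Trim21, an antibody receptor of the cytosol, read 539, 559, 554, 529 and 508, with no break between control female 4 and control female 5. Its genotype differences were 0.16 ± 0.10 in females (limma adjusted p = 0.627), where the groups did not overlap, and 0.16 ± 0.11 in males (0.653). Trim3, which lies between the Trim cluster and Gvin1, ran from 368 to 450 in control females and 235 to 463 in Bmal1 KO females. The Trim3 differences were -0.17 ± 0.13 in females (limma adjusted p = 0.688) and -0.16 ± 0.13 in males (0.732).

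Cell type markers are given with the share called among all genes, which was 1.75% in females and 1.33% in males. An unadjusted limma p under 0.05 was reached by 3110 of all 26612 tested genes in females and 2899 in males. Of 12 macrophage markers 1 passed in females, Mrc1, a scavenger receptor, at -0.59 ± 0.11 (limma adjusted p = 0.00457), and 0 in males. Of 7 adrenal cortex markers, 0 passed in females (1 at an unadjusted limma p under 0.05, median difference -0.17) and 2 were lower in males (5 at an unadjusted p under 0.05, median -0.28), Cyp11a1 at -0.71 ± 0.17 (limma adjusted p = 0.0321) and Star at -0.69 ± 0.15 (0.0238). Star lost its call without Bmal1 KO male 2 (0.105) or male 4 (0.1), and Cyp11a1 lost its call in 7 of the fits with 1 library left out (0.0588 to 0.125). With a pseudocount of 10 neither Star (0.0797) nor Cyp11a1 (0.0562) passed. None of the lymphocyte (11), chromaffin (5) or endothelial (5) markers passed in either sex by limma, with 3, 1 and 0 in females and 1, 1 and 1 in males at an unadjusted p under 0.05.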

How the data were processed

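Per the submitters' processing notes, FastQC, MultiQC, featureCounts, Salmon and DESeq2 were used with the builds GRCm38 and mm10. The sources used here do not give versions, aligner, annotation or strand setting. The authors deposited 1 normalised signal value per gene and library. Every value was a whole multiple of 1 step per library within 0.001 of a read (100% of values), so the deposited signal is a read count divided by 1 factor per library. All columns were matched to samples by title (0 without one).

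limma 3.58.1 (R 4.3.3, limma-trend) took log2(value + 1) as input, kept the 26612 genes that reached 1 in 4 or more libraries and estimated 1 mean for each of the 4 groups. The call threshold was 0.05 on p-values adjusted by Benjamini-Hochberg over all these genes, and the script was tested on simulated data. The limma test replaced a count test because the deposited values are not counts; edgeR 4.0.16 and DESeq2 1.42.0 on recovered reads were alternatives. Gene coordinates and exon lengths came from GENCODE M21, and promoters from RefSeq, where all 8 Trim members were matched by symbol (Trim30a with 2 starts, of which the one matching GENCODE is shown). Some RefSeq starts differ from the GENCODE ones, most of all that of Trim30b, which lies inside its GENCODE gene. The members and lists were chosen with earlier results of these data known. Named genes were the members and Arntl, up to 10 called neighbours per sex, the 5 genes most like each member with a mean of at least 10, and the called or 2 most abundant genes of each list.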

Additional observations from a re-analysis of the deposited data

Results flagged for a closer look

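In groups of 4 to 6 libraries, the gap between the most extreme library and its nearest neighbour was divided by the range of the group and compared with Dixon's critical value. Of 66 groups examined 16 stood out. Chance flags about 1 in 20 unselected groups, but the count cannot be read against that. Some of these genes were chosen for switching between libraries or named for following the same split. The values are a description.

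Bmal1 KO male 2 stood above the other Bmal1 KO males with a gap of 0.856 of the range for Trim5, 0.941 for Trim12a, 0.928 for Trim30d and 1 for Gvin1. It did so too for the pseudogenes Gm1966 (0.868) and Gm5590 (0.999). Control female 5 stood below the other control females for Trim5 (0.715), Trim30d (0.756) and Gm5590 (0.744). It stood above them for Mrpl48-ps (0.746) and Ucp2 (0.732).

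The other cases were single libraries outside that split. Bmal1 KO female 4 was highest of its group for Trim30a (0.799) and Trim30d (0.770), control male 5 for Gm4070 (0.806) and control male 3 for Gm1966 (0.711), and control male 1 was lowest of its group for Ucp2 (0.627).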

How the results depend on the processing

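The signs of the female differences of Trim5, Trim12a, Trim30d and Gvin1 held in every alternative fit. Of 540 recomputed member differences, 530 moved by less than 1 spread, the pooled SD within the 2 groups compared. The split into high and low libraries widens that SD, so this count does not measure stability. The male Gvin1 difference went from 1.85 to 0 without Bmal1 KO male 2 and still moved by less than 1 spread. Neighbours called in females were 8 (Gm15133 among them), and 5 with a pseudocount of 0.1, 5 with no filter, 4 with the replicate number as a block, 3 with only the female libraries, 4 within 1 megabase, 14 with DESeq2 and 3 to 9 with 1 library left out. In males they were 4, and 2 with only the male libraries, 1 within 1 megabase, 9 within 10 megabases, 7 with DESeq2, 2 without control female 5 and Bmal1 KO male 2 together (chosen after seeing the data), and 2 to 5 with 1 library left out (2 without Bmal1 KO male 2, 3 or 4). All genes called were 467 in females (906 with DESeq2, 334 to 520 with 1 left out) and 354 in males (195 with only males, 730 with DESeq2, 217 to 484 with 1 left out, 217 without Bmal1 KO male 4 and 229 without control male 2). For the interaction there were 8, and 5 with the replicate block, 0 with age as a covariate, 70 with DESeq2 and 0 to 16 with 1 left out. The male difference of Mrpl48, which was not called, reversed to -0.047 without Bmal1 KO male 2, alone or with control female 5 (highest 0.095, without Bmal1 KO male 3), and that of Mrpl48-ps to 0.050 without the same library, alone or with control female 5 (lowest -0.336, without Bmal1 KO male 3). The uncalled male difference of Mrc1 reversed to 0.031 with the replicate block, 0.038 without control male 5 and 0.093 without Bmal1 KO male 1 (lowest -0.090, without Bmal1 KO male 2). The cause of these changes was not tested, beyond the smaller number of genes or libraries. The labels do not say that replicate numbers pair libraries, and no sex had every same-number correlation over 0.1, so the numbers were not taken as pairs. In females these correlations were all positive (0.01 to 0.14) and 4 of 5 Bmal1 KO females were nearest their own number, a hint of shared deviation from the data, not the design. In males they were -0.06 to -0.00, with 0 of 4.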

Other observations

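Gm5590 (chr7:39445830-39449221, minus strand), a transcribed pseudogene 73.8 megabases before Arntl, was also split between high and near absent. It read 254, 227, 295, 302 and 9.26 normalised reads in control females and 229, 254, 8.10, 1.12 and 9.20 in Bmal1 KO females. In control males the highest was 24.6, and Bmal1 KO males 9.56, 261.5, 9.78 and 9.71. It shared the high libraries of Trim12a and Gvin1 and was also high in Bmal1 KO females 1 and 2, where Gvin1 had 0 reads. It was named after its values were seen, and its genotype differences did not pass the test, at -2.44 ± 1.26 in females (limma adjusted p = 0.482) and 2.08 ± 1.29 in males (0.614).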
